A study of Caenorhabditis elegans with 2 samples.

Results

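The peaks described here are the weaker SNPC-4 binding candidates that both replicates share. They were found by chromatin immunoprecipitation followed by sequencing (ChIP-seq), in which a strain's tagged protein is pulled down with the DNA it touches and the DNA is read. The pooled list on the ce11 assembly held 30000 candidate peaks, of which 29975 lay on the nuclear chromosomes. IDR, the irreproducible discovery rate, is a filter meant to keep peaks whose ranks repeat between replicates, and it kept 1839 nuclear peaks. A weaker shared peak had to be nuclear, absent from that filtered list, of pooled signal 10 or more, and to have a summit within 100 bp of a summit in each replicate's own list. There were 2355 of them among 7794 nuclear candidates of signal 10 or more outside the filtered list, which is 30.2% (exact 95% interval 29.2 to 31.2%). They were therefore chosen by pooled signal and by the positions of the replicate summits, so those values are given as description and support nothing. The IDR peaks were not held to the condition on replicate summits, which 1619 of the 1839 met.

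The animals were whole *Caenorhabditis elegans* larvae of the L2 stage and of mixed sex, from the strain OP179, whose genotype is unc-119(ed3) III with the insertion wgIs179. The labels describe the insertion as targeting snpc-4 and the precipitated protein as its eGFP fusion, so the signal is that of a tagged protein from a mixture of all larval tissues. There were 2 biological replicates in 1 group. With no second group no conditions were compared, and every statement below sets groups of peaks side by side with exact 95% intervals that cover counting error only.

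SNPC-4 is a DNA-binding subunit of SNAPc, the complex named for activating small nuclear RNA genes. In animals SNAPc sits on a short element just before the start of small nuclear RNA genes and recruits either RNA polymerase II or RNA polymerase III. In the worm it also acts at the spliced leader RNA genes, whose product is joined to the front of many messenger RNAs, and at the piRNA genes clustered on chromosome IV, where it works with PRDE-1 and other factors.

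Sequences at the RNA genes show where these peaks lie relative to a gene that SNAPc is known for. The first set holds 100 bases before the annotated 5′ end and the first 20 bases of the RNA in capitals, read on the gene's strand from the WBcel235 assembly, which is the same sequence as ce11. C27H5.11 and smy-4 are annotated as small nuclear RNA genes and sls-2.11 as a spliced leader RNA gene. Their windows are chrII:7171742-7171861 on the plus strand, chrV:14094680-14094799 on the minus strand and chrIV:9140315-9140434 on the plus strand.
C27H5.11: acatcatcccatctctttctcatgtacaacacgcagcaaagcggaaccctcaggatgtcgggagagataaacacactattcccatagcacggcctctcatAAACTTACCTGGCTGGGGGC
smy-4: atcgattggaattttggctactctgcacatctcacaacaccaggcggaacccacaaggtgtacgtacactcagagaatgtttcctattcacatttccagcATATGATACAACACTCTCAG
sls-2.11: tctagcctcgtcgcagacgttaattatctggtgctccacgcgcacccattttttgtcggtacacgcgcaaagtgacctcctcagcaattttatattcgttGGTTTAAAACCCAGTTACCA

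The letters CGGAACCC began 59 bases before the 5′ end of C27H5.11 and 56 bases before that of smy-4. In C27H5.11 the summit lay 40 bp before the 5′ end, and in smy-4 it lay 50 bp before it. The letters did not occur in the sls-2.11 window, where the summit lay 58 bp before the 5′ end. These letters, with AGACGCAG and GCCGACAC, had been the leading 8-base words of the IDR peaks in earlier results on the same data. In C27H5.11 a copy of the last of these on the other strand, GTGTCGGC, matched at 6 of 8 bases after a gap of 5 bases, and in smy-4 at 5 of 8. The best match in sls-2.11 held 5 and 6 of the 8 bases of the words, and those in the snoRNA windows of T04A8.17 and C04G6.12, printed further on, held 4 and 4, and 2 and 6. Partial matches of the second word thus occur without the first.

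Exact copies of both words with that gap occurred among the weaker shared peaks away from annotated small RNA genes. The next set shows 50 bases on each side of the summit for the 4 strongest members that held CGGAACCC, then 5 bases, then GTGTCGGC, among windows clear of exons of coding genes. Capitals mark the 2 words, and each window is printed on the strand that reads them in that order. The first lies in an intron of syg-2 at chrX:14662046-14662146 (minus strand), the second in an intron of ser-2 at chrX:15288934-15289034 (plus strand), then one in an intron of irk-3 at chrX:14355209-14355309 (minus strand), and the last between genes, 1157 bp from pxmp-4, at chrIV:338285-338385 (plus strand).
syg-2 intron: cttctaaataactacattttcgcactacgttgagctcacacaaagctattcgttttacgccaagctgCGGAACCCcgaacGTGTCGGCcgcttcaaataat
ser-2 intron: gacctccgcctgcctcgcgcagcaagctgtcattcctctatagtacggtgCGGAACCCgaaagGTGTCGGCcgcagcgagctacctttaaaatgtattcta
irk-3 intron: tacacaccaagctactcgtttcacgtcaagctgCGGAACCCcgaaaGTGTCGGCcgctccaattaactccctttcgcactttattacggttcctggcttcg
near pxmp-4: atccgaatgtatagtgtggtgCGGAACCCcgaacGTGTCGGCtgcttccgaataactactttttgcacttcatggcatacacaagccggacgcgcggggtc

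The pair of words, CGGAACCC and 5 bases later GTGTCGGC, was looked for after its spacing had been seen in these windows, on both strands. It stood within 50 bp of 21 weaker shared summits (0.892%, interval 0.553 to 1.36%), 41 IDR summits (2.23%, 1.60 to 3.01%), 18 unshared candidates of signal 10 or more (0.331%, 0.196 to 0.523%) and 13 candidates below 10 (0.0639%, 0.0340 to 0.109%). Over all nuclear candidates the share was 0.310%. Of the 22 weaker shared windows that held both words in any arrangement, 21 held them with this gap. Of the 21 members, 15 lay in introns, 8 lay on chromosome X, 1 was within 250 bp of an unclassified noncoding RNA gene and 0 were within 250 bp of a gene of the listed noncoding classes. The nuclear genome held 211 copies of the pair, and 182 of these had an identical copy elsewhere, as did 18 of the 21 at members. The 21 were 9 distinct sequences, and 118 of the 211 copies (55.9%) had no candidate summit within 50 bp. Repeated copies are not independent sites, so neither the fixed gap nor the intervals above count separate occurrences. Reads from identical copies may not be placed with certainty, and how the aligner treated them was not stated.

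The most common leading word of the members was AGACGCAG. It is shown in capitals for the 3 strongest members that held it, by the same choice of windows, at chrII:15263135-15263235 (minus strand, 5025 bp from rga-9), chrIII:25623-25723 (minus strand, 1711 bp from H10E21.5) and chrIII:8794924-8795024 (plus strand, in an intron of zfp-1). The pooled signals of these peaks were 27.7, 27.6 and 27.6.
near rga-9: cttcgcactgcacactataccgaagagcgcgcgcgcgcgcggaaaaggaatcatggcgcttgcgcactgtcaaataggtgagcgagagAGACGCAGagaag
near H10E21.5: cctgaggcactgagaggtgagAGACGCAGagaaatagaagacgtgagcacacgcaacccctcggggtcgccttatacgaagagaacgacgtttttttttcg
zfp-1 intron: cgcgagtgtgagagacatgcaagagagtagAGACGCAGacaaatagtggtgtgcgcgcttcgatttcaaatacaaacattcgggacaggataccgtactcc

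AGACGCAG stood near 135 members (5.73%, 4.83 to 6.75%), against 10.5% of IDR peaks, 2.70% of unshared candidates, 0.732% of candidates below 10 and 2.08% of all nuclear candidates. It was almost as common at members away from coding promoters (5.26%, 4.17 to 6.54%) as at those on them (6.48%, 4.97 to 8.28%). The other words had higher shares away from promoters, with overlapping intervals for CGGAACCC and separate ones for GCCGACAC. CGGAACCC was near 2.91% of such members (2.10 to 3.91%) and 1.76% of those on promoters (1.008 to 2.84%), and GCCGACAC near 4.50% (3.49 to 5.70%) and 1.54% (0.844 to 2.57%). In IDR peaks away from promoters these shares were 11.4% and 11.7%, and on promoters 2.07% (1.27 to 3.18%) and 1.45% (0.794 to 2.42%). On promoters the intervals of members and IDR peaks thus overlapped for both words. Over all members, CGGAACCC stood near 58 (2.46%) and 6.47% of IDR peaks, and GCCGACAC near 79 members (3.35%) and 6.31% of IDR peaks, with 0.864% and 1.54% of unshared candidates and 0.921% and 1.21% of all nuclear candidates. At least one of these words was near 249 members (10.6%, 9.36 to 11.9%), 20.7% of IDR peaks (18.9 to 22.6%), 4.74% of unshared candidates (4.19 to 5.34%), 1.34% of candidates below 10 and 3.87% of all nuclear candidates. For each word over all members, and for the 3 words counted together, the members lay between the filtered peaks and the unshared ones, and for the words together the intervals of these groups did not overlap. The words were chosen as leading words of the IDR peaks, so the top place of those peaks was set in advance. Median pooled signal was 15.8 in members and 12.2 in unshared candidates, and word shares were not compared at matched signal.

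Other words ran the same or the opposite way. Runs of A, written AAAAAAAA, were near 242 members (10.3%), 3.21% of IDR peaks, 14.1% of unshared candidates, 17.2% of candidates below 10 and 15.2% of all nuclear candidates. GAGAGAGA was near 4.88% of members and 2.09% of all nuclear candidates, and CACACACA near 2.80% of members and 1.40% of all nuclear candidates. CTGTTTCA, the core of the element known before worm piRNA genes, was near 9 members (0.382%, 0.175 to 0.724%), 2 IDR peaks (0.109%), 1.31% of unshared candidates, 1.39% of candidates below 10 and 1.21% of all nuclear candidates. Every word was searched on both strands within 50 bases of a summit, and a match is a description of the letters, not of a bound site.

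The values that chose the members placed them in a narrow range. Pooled signal ran from 10.01 to 27.98 with a median of 15.8 (quartiles 12.3 and 20.6), and pooled rank from 1868 to 9638. The 3 members just inside the lower limit had signals of 10.008, 10.009 and 10.012, and the 3 shared candidates just outside it 9.997, 9.992 and 9.992. At the upper end the strongest member had 27.98 and the weakest IDR peak 28.02, because the filtered list was exactly the first 1864 pooled ranks, 25 mitochondrial peaks included. The second deposited measure, −log10 of a q-value, had a median of 1.58 over members and stood at its highest value, 2.48, in every IDR peak.

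The replicates contributed unequally. Replicate 1 listed 21391 peaks with a median signal of 3.09, and replicate 2 listed 30000 peaks with a median of 6.84. At members the replicate 1 signal ran from 2.00 to 17.7 (median 4.05), and the replicate 2 signal from 4.41 to 32.1 (median 10.7). Nothing states whether signal was scaled to depth, so the lists are not compared by level. Of the 7794 candidates, 4561 (58.5%) had a nearby summit in replicate 2 alone, 519 (6.66%) in replicate 1 alone and 359 (4.61%) in neither. Member summits lay a median of 4 bp from the replicate 2 summit and 34 bp from the replicate 1 summit, and 823 of them fell on the same base as the replicate 2 summit against 88 for replicate 1. Across the 2355 members, pooled log2 signal correlated with that of replicate 2 (Pearson 0.83, Spearman 0.84) more than with that of replicate 1 (0.44, 0.43), and the replicates with each other at 0.13 by both measures. These correlations are over peaks that share the same 2 libraries and were cut at both ends of the signal range, and the pooled list holds the reads of both.

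**Figure D1:**
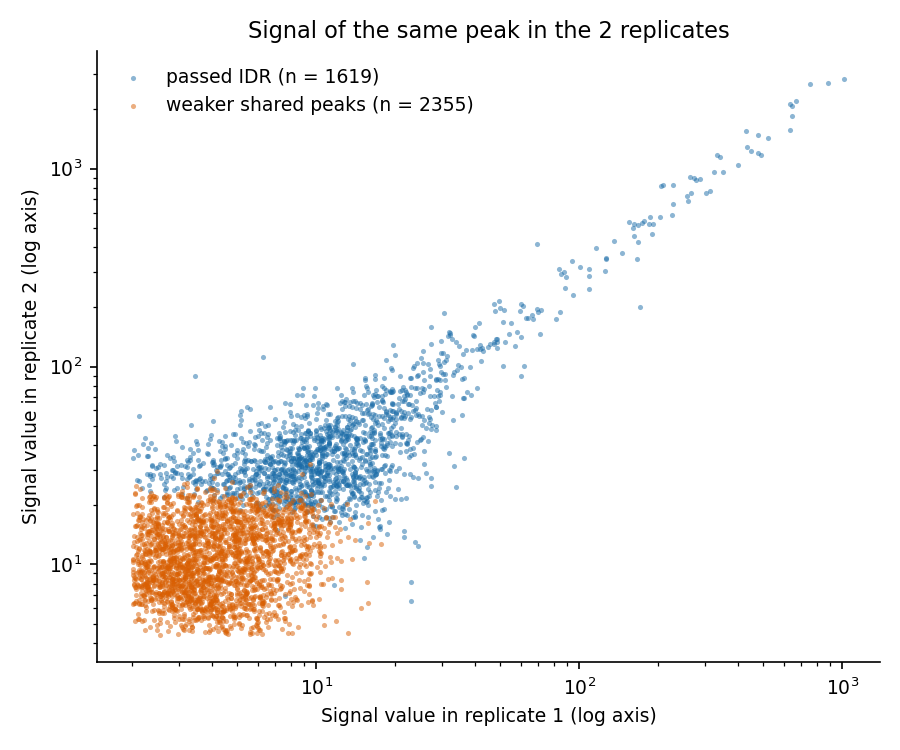
Signal value in replicate 1 (x, log axis) against replicate 2 (y, log axis) for 2355 weaker shared peaks (orange) and the 1619 IDR peaks with a summit within 100 bp in both lists (blue); each point is a peak. Orange points lie between 2.00 and 17.7 on x and 4.41 and 32.1 on y, with a Spearman correlation of 0.13 among them.

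The members stood apart from the filtered peaks on the chromosomes. Their median distance to the nearest IDR summit was 14800 bp, 25 of them (1.06%, 0.688 to 1.56%) lay within 500 bp of one, and 134 lay within 1000 bp. There were 89 neighbouring pairs of members within 1000 bp of each other. Of the unshared candidates 1.103% lay within 500 bp of an IDR summit (0.843 to 1.42%), an interval that overlaps that of the members.

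The strongest members mixed coding promoters, introns and open stretches. The 12 highest pooled signals ran from 27.86 to 27.98, and 6 of the 12 had a summit within 500 bp of a coding 5′ end. Those were ZK1248.19, nhr-1 (a nuclear hormone receptor), K05C4.2, unc-37 (a Groucho-type corepressor), ttc-4 and the shared promoter of dkc-1 (the pseudouridine synthase of small nucleolar ribonucleoproteins) and ran-1 (the Ran GTPase of nuclear transport). At unc-37 the summit lay 225 bp before the gene (pooled signal 27.9, replicate 1 signal 7.33, replicate 2 signal 23.1). At dkc-1 it lay 233 bp and at ran-1 468 bp before the 5′ end (27.9, 7.10 and 21.5 in the same order). Of the other members, pkg-2 (a cGMP-dependent protein kinase by its name) and mpz-1 (a multi-PDZ scaffold) held summits in introns, and the rest lay 554 bp from Y48C3A.5, 574 bp from tyra-2 (a tyramine receptor), 473 bp from K08C9.9 and 343 bp from the small nucleolar RNA gene K08F11.8.

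Ranking by the worse of the 2 replicate ranks gave another set. First was a summit on chromosome IV at 6839235, 36 bp from the unclassified noncoding RNA gene C05B10.21, which ranked 1198 in replicate 1 (signal 9.47) and 1041 in replicate 2 (32.1). Then came summits 1124 bp from C36B1.9, in a non-coding exon stretch of nhr-88, 457 bp before rad-51 (the recombinase of double-strand break repair) and 2619 bp from Y37D8A.4. The rad-51 summit had replicate signals of 8.77 and 22.9 and ranks of 1363 and 1776.

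Protein-coding promoters held 910 members (38.6%, 36.7 to 40.6%), taken as a summit within 500 bp of a coding transcript's 5′ end. The share was 52.6% in IDR peaks (50.3 to 54.9%), 49.6% in the lower-ranked 930 of them (46.3 to 52.8%), 31.8% in unshared candidates (30.6 to 33.1%) and 24.5% in candidates below 10 (23.9 to 25.1%). The members lay between the filtered and the unshared peaks, with no overlap of intervals. Coding 5′ ends on both strands lay within 500 bp of 141 members (5.99%, 5.06 to 7.02%), against 15.2% of IDR peaks (13.6 to 16.95%) and 3.05% of unshared candidates (2.61 to 3.54%). The summit did not have to lie before both ends, so these need not all be divergent gene pairs.

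Members on promoters sat mainly before the gene. The nearest 5′ end lay downstream of the summit for 717 of the 910 (78.8%, 76.0 to 81.4%), with a median position of -140.5 bp from the 5′ end, negative values being upstream. For IDR peaks it was 91.6% (89.7 to 93.3%) and -161 bp, for unshared candidates 66.9% (64.6 to 69.1%) and -105 bp, and for candidates below 10 56.6% and -51 bp. The order of the groups was the same as for the promoter share.

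Positions between coding genes followed the order of the promoters, and introns and coding exons the reverse order. Summits between coding genes made up 58.7% of members (56.7 to 60.7%), 72.4% of IDR peaks (70.3 to 74.4%) and 51.8% of unshared candidates (50.5 to 53.2%). Introns held 694 members (29.5%, 27.6 to 31.4%), 22.7% of IDR peaks and 33.3% of unshared candidates. Coding exons held 5.05% of members (4.204 to 6.02%), 1.03% of IDR peaks (0.623 to 1.61%), 7.08% of unshared candidates and 11.8% of candidates below 10. Exon bases outside the coding sequence held a further 160 members (6.79%) and 3.92% of IDR peaks.

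**Figure D2:**
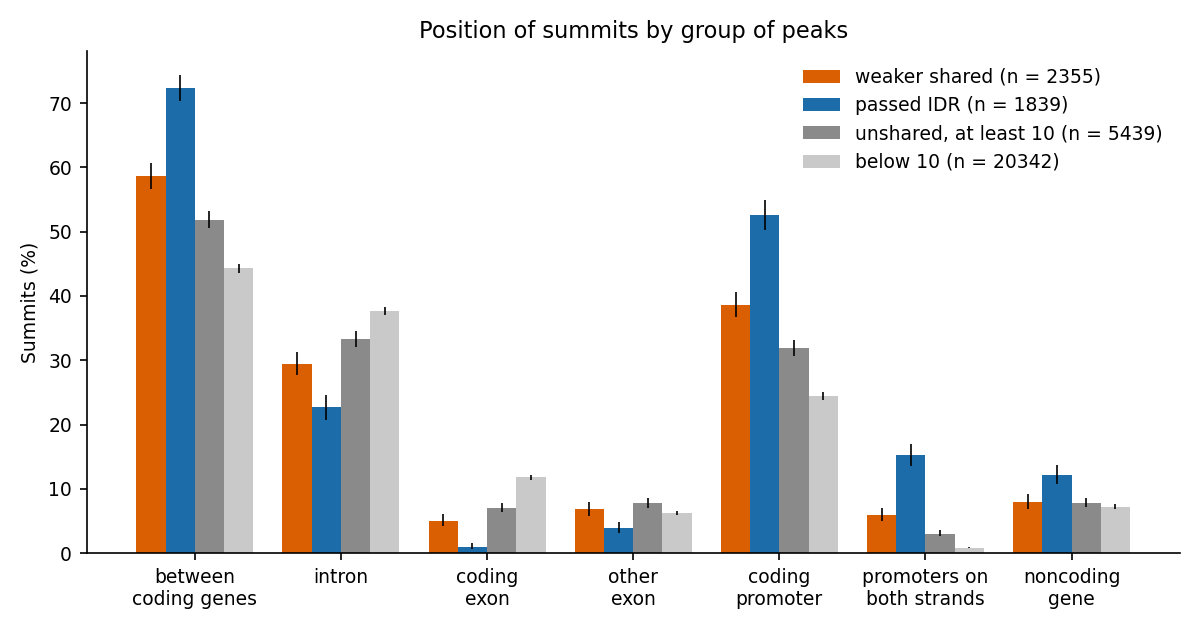
Share of summits (%, y) at each kind of position (x) for the weaker shared peaks, the IDR peaks, unshared candidates of signal 10 or more and candidates below 10; bars are shares and lines exact 95% intervals, and positions overlap, so shares do not add up to the whole. The orange bars lie between the blue and dark grey bars for promoters (38.6%, 52.6% and 31.8%), introns and coding exons.

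Recurrence can be set beside signal only roughly, in steps of pooled signal that also held candidates found in replicate 2 alone. Their median signal was 12.4 against 15.8 in members, and signals within a step were not matched. Pooled signal also holds the replicate 1 reads that decide recurrence, so the 2 cannot be fully separated. Among members the promoter share was 32.6% at signal 10 to 15 (n = 1068, 29.8 to 35.5%), 40.2% at 15 to 20 (n = 632, 36.3 to 44.1%) and 47.0% from 20 to the IDR limit (n = 655, 43.1 to 50.9%). Among candidates of replicate 2 alone the shares at these steps were 29.9% (n = 3435, 28.4 to 31.5%), 36.6% (n = 755, 33.1 to 40.1%) and 45.6% (n = 371, 40.4 to 50.8%). At each step the intervals of the 2 sets overlapped, so a difference in promoter share within a step was not shown. The upper step of the members overlapped the interval of the lower-ranked IDR peaks.

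Mean base composition within the same steps of signal differed between members and candidates of replicate 2 alone, by less than the SD over peaks. The windows of 50 bases on each side of member summits held 41.6% ± 9.75 G and C (SD over 2355 peaks), against 48.9% ± 7.34 in IDR peaks, 35.9% ± 9.57 in unshared candidates, 32.7% ± 8.49 in candidates below 10 and 35.4% in the nuclear genome. At the 3 steps of signal members had means of 38.3%, 43.3% and 45.3%, and candidates of replicate 2 alone 34.1%, 38.1% and 42.9%. Candidates of replicate 1 alone, whose signals were mostly low, had 38.9%, 42.5% and 42.7%, within 1 percentage point of the members at the lower steps and nearer to replicate 2 alone at the top step, where n was 31. GC content can change how well fragments are amplified and read, and its part in which peaks were found in replicate 1 was not tested.

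Member promoters and member sites elsewhere had similar composition, at 41.9% ± 9.37 and 41.4% ± 9.98. In IDR peaks the sites away from promoters had the higher mean, 49.9% ± 7.75 against 48.0% ± 6.82.

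**Figure D3:**
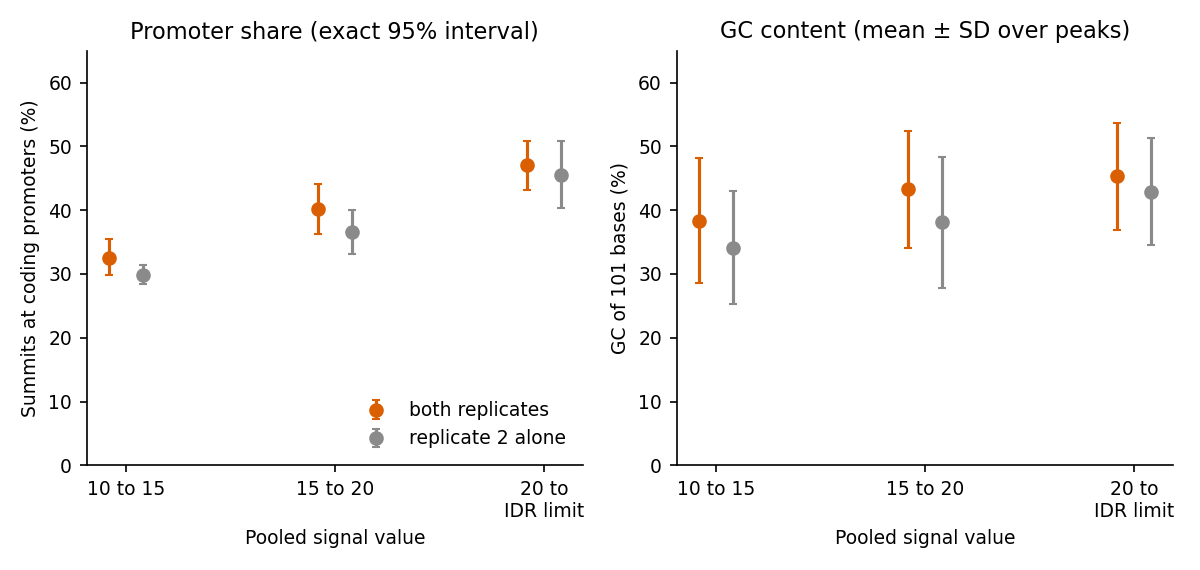
Promoter share (left, %, with exact 95% intervals) and GC content of the window around the summit (right, %, mean and SD over peaks) at 3 steps of pooled signal, for candidates recurring in both replicates (orange, the weaker shared peaks) and in replicate 2 alone (grey). Promoter shares rise with signal in both sets and their intervals overlap at each step; mean GC is higher in the orange set at each step, by less than the SD.

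The listed noncoding classes were small nuclear, spliced leader, transfer, ribosomal and small nucleolar RNA genes, microRNA genes and piRNA genes. Genes of these classes lay within 250 bp of 188 members (7.98%, 6.92 to 9.15%). The share was 12.2% in IDR peaks (10.7 to 13.8%), 7.85% in unshared candidates (7.15 to 8.60%) and 7.22% in candidates below 10 (6.86 to 7.58%). The intervals of members and of both weaker groups overlapped, while the classes inside the total differed.

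Genes annotated as small nuclear RNA genes, the smy genes among them, had 4 member peaks (0.170%, 0.0463 to 0.434%), 37 IDR peaks (2.01%) and 10 unshared candidates (0.184%). Over all nuclear candidates the share was 0.197%, inside the interval of the members. The members were C27H5.11, smy-4, F08G2.9 and smy-12. At C27H5.11 the pooled, replicate 1 and replicate 2 signals were 22.99, 7.31 and 16.1, and at smy-4, inside an intron of D1086.8, they were 21.004, 3.15 and 14.4. At F08G2.9 they were 20.97, 7.58 and 5.33, with the summit 96 bp before the RNA, and the same summit lay 110 bp before ins-37, an insulin-like peptide gene. The smy-12 peak was the weakest, at 13.6, 3.03 and 9.99. The median pooled signal at the IDR peaks of this class was 100.4.

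Spliced leader RNA genes had 1 member (0.0425%) against 14 IDR peaks (0.761%), with 0.0368% of unshared and 0.0601% of all nuclear candidates. At sls-2.11, which lies in an intron of daf-10 (an intraflagellar transport gene), the pooled signal was 13.3 and the replicate signals 6.74 and 6.66. The replicate ranks were 2122 and 15777, so the peak stood high in the first list and low in the second. The median pooled signal of the 14 IDR peaks was 524.

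Small nucleolar RNA genes, which guide modification of ribosomal RNA, had 27 member peaks (1.15%, 0.757 to 1.66%), 70 IDR peaks (3.81%, 2.98 to 4.78%) and 24 unshared candidates (0.441%, 0.283 to 0.656%). Members added 26 genes to the 71 with an IDR peak, which makes 97 of 346 annotated. Member summits lay before the RNA in 21 of 27 peaks, at a median position of -68 bp, and IDR summits in 64 of 70, at -52.5 bp. The strongest were T23G11.12 (27.6), T04A8.17 in an intron of ppat-1 (26.7) and C04G6.12 in an intron of mpk-2 (26.2). At C04G6.12 the replicate signals were 9.68 and 15.4.

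The windows before the latter pair of these are shown because they share a run of 14 bases. They are chrIII:4689752-4689871 and chrII:5105212-5105331, both on the minus strand, with the RNA in capitals.
T04A8.17: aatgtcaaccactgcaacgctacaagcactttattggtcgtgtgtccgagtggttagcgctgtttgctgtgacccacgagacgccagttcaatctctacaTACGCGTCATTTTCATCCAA
C04G6.12: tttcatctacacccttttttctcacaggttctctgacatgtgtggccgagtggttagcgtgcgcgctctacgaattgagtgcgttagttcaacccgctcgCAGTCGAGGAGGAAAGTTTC

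The shared run is ccgagtggttagcg. It was noticed in the 2 windows after they had been chosen for their signal, and it occurred within 50 bases of 2 of the 29975 nuclear summits, both of them these members. None of the 612 annotated nuclear tRNA genes held it (0 of 612). Both counts took exact copies of the whole run only, and near matches, in tRNA genes or elsewhere, were not looked for.

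Transfer RNA genes, transcribed by RNA polymerase III from elements inside the gene, had 67 member peaks (2.85%, 2.21 to 3.60%), 69 IDR peaks (3.75%, 2.93 to 4.72%) and 95 unshared candidates (1.75%, 1.42 to 2.13%). Over all nuclear candidates the share was 1.14%. The tRNA genes were the listed class in which members came closest to IDR peaks in number, except for miRNA genes with 9 and 10. Members touched 71 genes and IDR peaks 76, with 0 in common, so 147 of 612 had a peak of either kind. No listed class had a gene in common, and only 25 of 2355 members lay within 500 bp of an IDR summit. The 0 is thus not particular to tRNA genes. Member summits sat at a median position of -1 bp from the gene's 5′ end, with 27 of 67 inside the gene, and IDR summits at -17 bp, with 19 of 69 inside. The genes with a member spread over 20 isotypes, from tRNA-Thr (8 of 34 genes), tRNA-Ala (7 of 34), tRNA-Gly (6 of 55) and tRNA-Lys (6 of 46) down to 1 gene each for tRNA-Asn, tRNA-Cys, tRNA-Phe and tRNA-Tyr. An identical copy of the gene existed elsewhere for 62 of the 71 genes with a member, 62 of the 76 with an IDR peak and 469 of all 612, so the assignment of reads among copies is uncertain.

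The 3 strongest tRNA members were F47G6.t1 (tRNA-Arg, pooled signal 27.9, in an intron of spe-15), W09G10.t1 (tRNA-His, 27.5, in an intron of col-72) and B0350.t1 (tRNA-Lys, 27.5). At B0350.t1 the replicate signals were 9.24 and 18.4 and the summit lay 30 bp inside the gene. Its window, chrIV:5967140-5967240 on the plus strand, are shown with the tRNA gene in capitals, since the summit falls on the transcribed part.
B0350.t1: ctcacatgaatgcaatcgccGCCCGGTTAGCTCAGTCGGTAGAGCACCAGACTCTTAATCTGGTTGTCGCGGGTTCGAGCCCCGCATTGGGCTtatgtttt

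Among the listed classes with a member, piRNA genes were the one with a higher share of members than of IDR peaks. They lay within 250 bp of 84 members (3.57%, 2.85 to 4.40%), 35 IDR peaks (1.90%, 1.33 to 2.64%), 292 unshared candidates (5.37%, 4.78 to 6.001%) and 1267 candidates below 10 (6.23%, 5.90 to 6.57%). The strongest member within reach of a piRNA gene was the B0350.t1 peak, 81 bp from 21ur-5229, followed by the C05B10.21 peak, 241 bp from 21ur-8870, and a peak in an intron of Y105C5A.15 near 21ur-6577 (26.1). In the stretches of chromosome IV with at least 50 piRNA genes per 100 kb, members numbered 120 (5.10%, 4.24 to 6.06%), IDR peaks 80 (4.35%, 3.46 to 5.39%), unshared candidates 368 (6.77%, 6.11 to 7.47%) and candidates below 10 1507 (7.41%). Neither count puts the members above the weaker candidates.

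Genes of microRNAs, short repressors of messenger RNAs, had 9 members (0.382%, 0.175 to 0.724%) and 10 IDR peaks (0.544%), with 0.147% of unshared and 0.217% of all nuclear candidates. Only 1 of 9 member summits lay before the annotated hairpin, with a median of 133 bp after its 5′ end, against 9 of 10 IDR summits with a median position of -78.5 bp. The strongest were cel-mir-8209 (25.6), cel-mir-4934 (20.1) and cel-mir-52 (18.7). Ribosomal RNA genes had 0 members, which by the exact interval allows a share of up to 0.157%.

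Unclassified noncoding RNA genes, a class of mostly short annotated transcripts outside the list, lay near 281 members (11.9%, 10.6 to 13.3%), 327 IDR peaks (17.8%, 16.1 to 19.6%), 475 unshared candidates (8.73%, 7.996 to 9.52%) and 1034 candidates below 10 (5.08%). Pseudogenes lay near 28 members (1.19%) and 13 IDR peaks (0.707%), and long intergenic noncoding genes near 17 members (0.722%) and 8 IDR peaks (0.435%). Unshared candidates had 1.32% and 0.735%, and all nuclear candidates 1.89% and 0.510%. The intervals of members and IDR peaks overlapped for both classes, and that of members at pseudogenes (0.791 to 1.71%) lay below the share over all nuclear candidates.

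**Figure D4:**
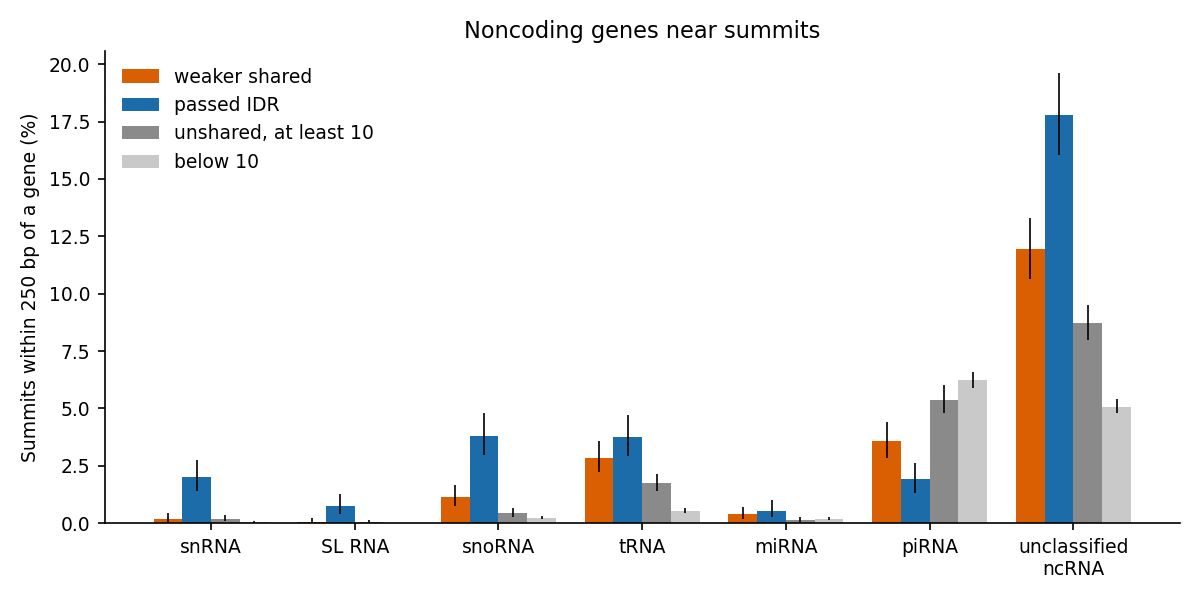
Share of summits (%, y) within 250 bp of a gene of each noncoding class (x) in the 4 groups of peaks, with exact 95% intervals; a summit can count in more than 1 class. Orange bars lie below blue for snRNA, SL RNA and snoRNA genes (0.170% against 2.01% for snRNA), near blue for tRNA genes (2.85% against 3.75%), and between blue and dark grey for piRNA genes.

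Coding genes with a member at the promoter numbered 1049, which is 5.25% of 19973 nuclear coding genes, and those with an IDR summit 1255, or 6.28%. The 2 sets had 42 genes in common, 4.004% of the member genes and 3.35% of the IDR genes, and together held 2262 genes. Since 158 members lay in the promoter of 2 or more coding genes, a summit cannot always be given to a single gene. The gene families below were set by name, and their counts are read against 5.25% and 6.28%. Members exclude IDR peaks, and 25 of 2355 lay within 500 bp of an IDR summit. The member and IDR shares of a family are therefore not independent.

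Ribosomal protein genes, which encode the protein part of the translation machinery, had far more IDR summits than members. Of 81 genes, 59 had an IDR summit (72.8%, 61.8 to 82.1%) and 6 a member (7.41%, 2.77 to 15.4%), and the member share was near the 5.25% of all coding genes. All 6 were of the large subunit, rpl-10 (27.6), rpl-32 (19.8), rpl-12 (19.6), rpl-19 (17.5), rpl-29 (14.9) and rla-2 (12.8), and of the 31 small-subunit genes 0 had a member. At rpl-10 the summit lay 416 bp before the 5′ end and only 13 bp past that of ints-11, and at rpl-12 it lay 456 bp past the 5′ end and 10 bp before tag-115. Both rpl-12 and rpl-29 also had an IDR summit, and 4 of the 81 genes had a member only. The member share of 7.41% counts the 59 genes whose IDR summits could not be members. Only rpl-19 had a member within 250 bp of its own 5′ end (238 bp before it, replicate signals 6.41 and 9.40).

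Other growth-related families had a larger share with an IDR summit than with a member. The intervals of these shares were separate for translation factors and overlapped for the proteasome, the chaperones and the vacuolar proton pump. Among translation factors 4 of 41 genes had a member and 18 an IDR summit, with erfa-3 (a release factor, pooled signal 27.1), eif-3.I (21.1) and eif-2Balpha (20.01) the strongest. Of 33 proteasome genes 4 had a member and 13 an IDR summit. The strongest were pbs-7 (27.8, replicate signals 4.03 and 23.8), pas-3 (25.03) and pas-6 (22.5), all subunits of the core barrel. Among chaperones it was 6 and 18 of 59, led by dnj-10 (24.9) and the chaperonin subunits cct-4 (24.7) and cct-2 (24.4). The vacuolar proton pump had 3 and 7 of 20, with vha-10 at 20.1, vha-17 at 16.6 and vha-3 at 12.8. In each of these families the interval of the member share held the 5.25% of all coding genes.

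Nuclear genes for mitochondrial proteins also had more IDR summits than members, with overlapping intervals in both families given here. Of 50 nuclear genes for oxidative phosphorylation 7 had a member (14%, 5.82 to 26.7%) and 17 an IDR summit (34.0%, 21.2 to 48.8%), the strongest being sdhd-1 (27.4), cyc-2.1 (cytochrome c, 26.7) and ucr-2.1 (25.7). Of 70 mitochondrial ribosomal protein genes 7 had a member (10%, 4.12 to 19.5%) and 12 an IDR summit (17.1%, 9.18 to 28.0%). There mrps-31 had pooled and replicate signals of 26.1, 5.92 and 21.3, mrpl-39 had 25.96, 3.95 and 22.3, and mrpl-45 had 25.8, 3.78 and 23.4. Some of these summits lay in the promoter of another coding gene as well, as at mrps-18B with prp-9 and mrps-23 with prp-40, both splicing genes.

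RNA-handling genes had members too. Among the Sm and LSm proteins, which coat the small nuclear RNAs, 4 of 14 genes had a member (28.6%, 8.39 to 58.1%) and 7 an IDR summit. The members were snr-7 (19.5), snr-2 (19.3), lsm-4 (18.9) and snr-4 (16.7), and snr-4 had an IDR summit as well. Of 41 splicing factor genes 6 had a member (14.6%, 5.57 to 29.2%) and 11 an IDR summit, led by sftb-1 (22.7), sftb-2 (19.7) and rnp-1 (15.9). The member intervals of both families lay above the 5.25% of all coding genes, as did those of oxidative phosphorylation and histone genes. No test was made over the 32 lists. RNA polymerase subunits had 2 members of 23, rpoa-12 (20.5) and rpb-4 (20.4), and 6 IDR summits. Of 32 tRNA synthetase genes 2 had a member, sars-2 (20.7) and aars-1 (13.5), and 1 an IDR summit. For polymerase subunits and synthetases the member interval held 5.25%.

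Of 11 genes for SNAPc subunits and RNA polymerase III factors, 2 had a member (18.2%, 2.28 to 51.8%) and 0 an IDR summit (0 to 28.5%). Both intervals hold the shares over all coding genes, 5.25% and 6.28%. At snpc-3.4, a SNAPc subunit gene, the summit lay 21 bp before the 5′ end, with pooled, replicate 1 and replicate 2 signals of 27.01, 3.39 and 21.8. At snpc-1.1, another subunit gene, it lay 11 bp past the 5′ end, with 12.6, 2.84 and 8.07, and 276 bp before spdl-1. No candidate of any signal lay within 500 bp of snpc-4 itself.

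Histone genes, which supply nucleosome proteins and in the worm often stand in divergent pairs, had more genes with a member than with an IDR summit. The counts were 11 of 72 (15.3%, 7.88 to 25.7%) and 4 of 72 (5.56%, 1.53 to 13.6%), with overlapping intervals and 0 genes with an unshared candidate. The 11 genes rest on 6 peaks, because 5 of the summits lie between the genes of a pair. The strongest was between his-3 and his-4 (pooled signal 17.8, replicate signals 8.71 and 11.04), 75 bp before the first and 218 bp before the second. The others were between his-31 and his-32 (17.2), between his-5 and his-6 (14.8), between his-35 and his-41 (11.99), between his-59 and his-60 (10.9), and 98 bp before his-72 (12.5), which encodes a replication-independent histone. None of these peaks reached 20, and their pooled signals, from 10.9 to 17.8, lay on both sides of the member median of 15.8.

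Nuclear hormone receptors, a family much expanded in the worm, had 18 genes with a member of 269 (6.69%, 4.01 to 10.4%) and 8 with an IDR summit (2.97%, 1.29 to 5.78%), and the member share was near that of all coding genes. The strongest were nhr-1 (27.9), nhr-35 (27.03) and nhr-68 (20.5), and nhr-1 had an IDR summit as well. Homeobox and bHLH factors had 1 of 88 with a member, ceh-100 (20.9), and zinc finger and bZIP factors 1 of 49, zip-11 (16.6). The intervals of these shares, 0.0288 to 6.17% and 0.0517 to 10.9%, both hold the 5.25% of all coding genes.

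Genes of membrane traffic had 9 members and 19 IDR summits among 86, led by vps-28 (25.5), vps-25 (24.8) and vps-35 (19.1). The ubiquitin system had 5 and 11 of 65, led by ufd-1 (21.2), usp-48 (18.9) and cul-2 (18.1). Protein kinases had 5 and 9 of 48, led by kin-1 (the catalytic subunit of protein kinase A, 26.2), mak-1 (22.97) and kin-29 (18.8). The member intervals of membrane traffic, the ubiquitin system and kinases all held 5.25%.

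In the large environmental and structural families the member interval lay below 5.25% for chemoreceptors and C-type lectins and held it for the others. Chemoreceptors had 10 genes with a member of 1309 (0.764%, 0.367 to 1.40%) and 6 with an IDR summit (0.458%), with srh-2 (24.98), str-12 (22.3) and srt-28 (21.3) strongest. F-box and MATH proteins had 13 of 395 (1.76 to 5.56%) and 7 of 395, led by fbxa-153 (22.3), bath-38 (20.4) and fbxa-37 (19.3), and the fbxa-153 summit is the one at str-12. Collagens had 5 genes (3.21%, 1.05 to 7.32%) and 4 (2.56%), led by col-72 (27.6), col-176 (16.7) and col-37 (13.5). C-type lectins had 2 (0.101 to 2.98%) and 3 of 240, the members being clec-196 (16.2) and clec-167 (13.7). Cytochrome P450 and glucuronosyltransferase genes, which act on foreign compounds, had 3 (0.441 to 6.09%) and 1 of 141, with cyp-33C8 at 21.6, ugt-58 at 13.1 and cyp-37A1 at 10.3. Neuropeptide genes had 4 and 1 of 140, led by ins-37, nlp-76 (20.2) and nlp-15 (10.3). The interval of the member share held the IDR share in each of these families except neuropeptides (0.784 to 7.15% against 0.714%).

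Lists of tissue marker genes were too short to set apart from the share over all coding genes. Of the 12 neuron genes snb-1 (synaptobrevin) had one, 373 bp before its 5′ end (pooled 26.3, replicate signals 5.11 and 18.7), and of the 11 muscle genes act-4 (an actin, 13.3), which had an IDR summit as well. Of 12 germline, 11 intestine and 11 hypodermis genes 0 had a member. Among 11 genes of the piRNA pathway tofu-1 had one (13.3, replicate signals 4.56 and 4.67), 181 bp before it and 164 bp before ruvb-1. In unc-119, whose mutant allele the strain carries, a member summit lay in an intron at 10903355 on chromosome III (pooled 27.2, replicate signals 5.14 and 22.5), and 6 candidates below 10 (5.63 to 9.09) lay within 500 bp of the gene.

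**Figure D5:**
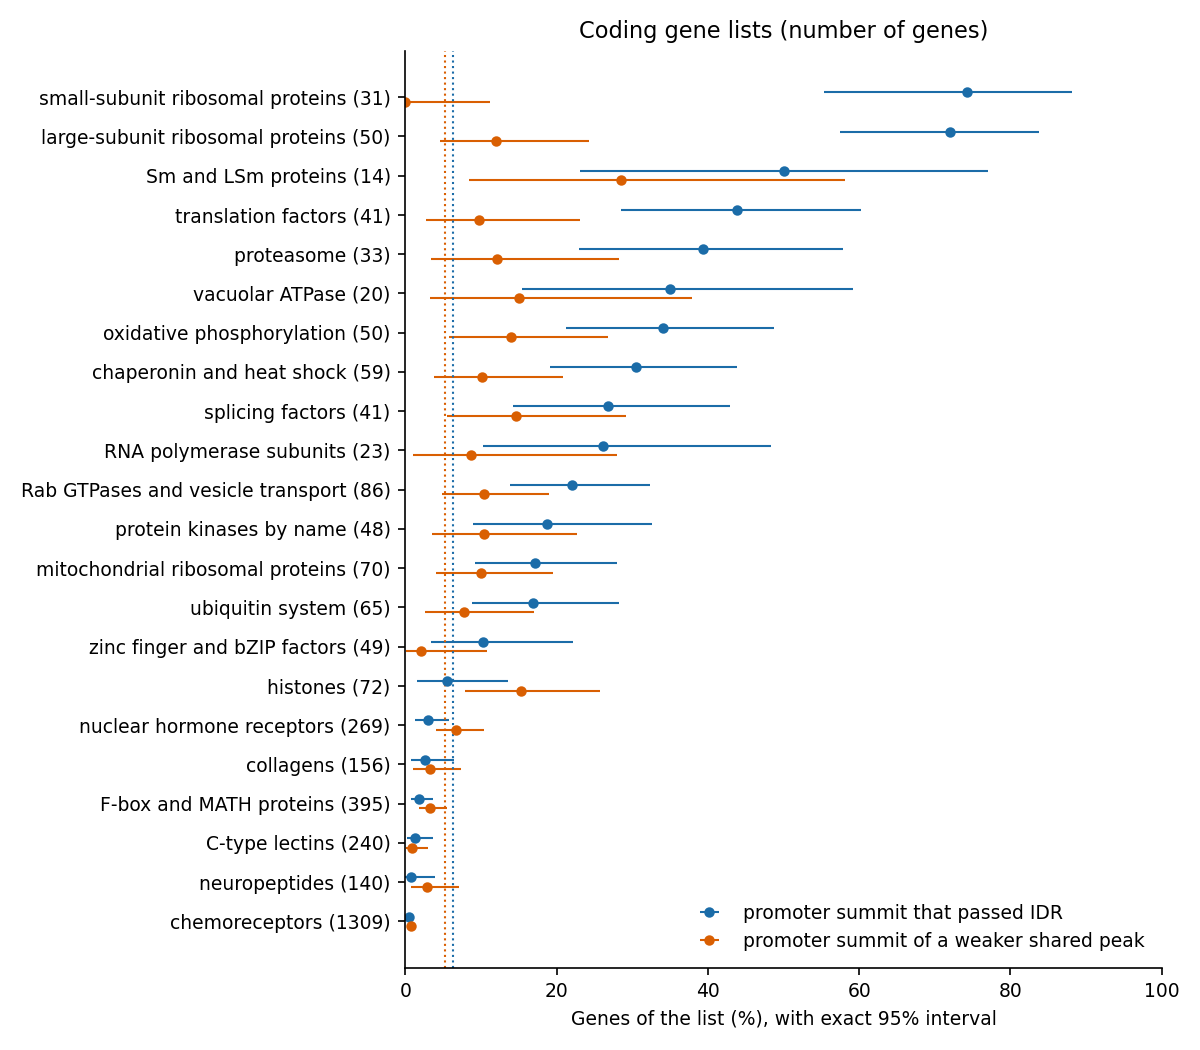
Share of the genes of each named family (%, x, with exact 95% intervals) that had a promoter summit of an IDR peak (blue) or of a weaker shared peak (orange), for families with at least 5 genes that had a summit of either kind; the number of genes is in brackets, and dotted lines mark the shares over all coding genes (6.28% and 5.25%). Blue points run from 74.2% for the small ribosomal subunit to under 1% for chemoreceptors, and orange points stay between 0 and 28.6%; histones are a family in which orange lies right of blue.

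Members were spread over all chromosomes. Chromosome I held 334 (14.2%), II 387 (16.4%), III 354 (15.03%), IV 420 (17.8%), V 418 (17.7%) and X 442 (18.8%). On V the interval of the members (16.2 to 19.4%) lay below that chromosome's 20.9% of the nuclear genome. On the other chromosomes it held the genome share. The V intervals of IDR peaks (14.3 to 17.7%) and unshared candidates (17.6 to 19.7%) also lay below 20.9%. The matching shares of IDR peaks were 16.97%, 16.97%, 15.99%, 15.1%, 15.99% and 18.98%. The intervals of both groups overlapped on every chromosome, on IV at 16.3 to 19.4% against 13.5 to 16.8% and on I at 12.8 to 15.7% against 15.3 to 18.8%. The share of candidates that recurred was alike everywhere, between 29.2% on V and 32.8% on II, with overlapping intervals.

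The promoter share of members was lowest on X, at 29.6% (131 of 442, 25.4 to 34.135%), and between 38.98% on III and 45.5% on I among autosomes. The interval of X met those of III (33.9 to 44.3%) and, narrowly, II (34.129 to 44.1%), and lay below those of the other autosomes. IDR peaks ran the same way, with 33.0% on X (28.0 to 38.2%) and 53.6 to 61.5% on the autosomes, and unshared candidates had 24.6% on X and 28.7 to 36.8% on the autosomes. Along the chromosomes, cut into equal left, middle and right parts, members fell at 28.1%, 37.5% and 34.4%, and IDR peaks at 25.9%, 35.7% and 38.3%.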

How the data were processed

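Peak lists of 2 ChIP-seq replicates of eGFP-SNPC-4 were used as deposited. Per the labels and the deposited description files, the authors made relaxed lists of peaks and background from each replicate's alignments and from the pooled alignments, each with a control alignment, and derived the IDR list from these. Which aligner and peak caller were run, and in which version, is not given in the sources used here. As deposited, the signal column is the authors' peak strength, with its scaling not stated, and the deposited −log10 q-value column is the authors' too. Read depth per library was not used here, so no interval covers it, and p-values were not computed. The 95% intervals are exact (Clopper-Pearson).

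Lists on ce11 were joined by summit, with a limit of 100 bp to a replicate summit and a minimum signal of 10. Genes came from Ensembl release 115 of WBcel235, with RefSeq giving symbols for 2773 of 2811 genes that had none there. A promoter is a summit within 500 bp of a coding 5′ end, and noncoding classes used 250 bp to the gene. Sequences are RefSeq's WBcel235. Python 3.11.15, numpy 2.4.6, pandas 2.3.3, scipy 1.17.1 and Biopython 1.88 were used, and the joining rules were tested on 1000 planted peaks. Named peaks are the 12 strongest, 5 by the worse replicate rank, the 3 strongest of each class or family (all, where a family has fewer), snpc-4 and unc-119. Named after their values were seen were smy-12, mrps-18B, mrps-23, snr-4 and the ribosomal protein and histone genes beyond the 3 strongest, as were the sequence pair and the shared run. The members, gene lists and words were chosen with earlier results of these data known. Alternatives were other minimum signals, distances and windows, interval overlap, each replicate alone, members away from IDR peaks, and ce10.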

Additional observations from a re-analysis of the deposited data

How the results depend on the processing

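No paired analysis was possible because the series has 1 group. The number of weaker shared peaks, 2355, was 1287 at a minimum signal of 15, 655 at 20, 1345 with summits within 50 bp and 3693 with overlapping intervals. Needing only one replicate gave 2874 to 6916, the larger when replicate 1 was left out. The promoter share of 38.6% was 43.7% and 47.0% at minimum signals of 15 and 20, 25.4% and 54.4% with windows of 250 and 1000 bp, and 34.4 to 36.9% with a replicate left out. The share between coding genes, 58.7%, was 63.2% and 65.3% at those signals, 56.5% with overlapping intervals, and 54.4 to 57.4% with a replicate left out. The noncoding share of 7.98% was 5.22% and 10.6% with windows of 100 and 500 bp, and 7.79 to 7.91% with a replicate left out. The share within 500 bp of an IDR summit, 1.06%, was 1.60% with summits within 200 bp, 1.90% with overlapping intervals, 0.552% and 5.69% with windows of 250 and 1000 bp, and 1.08 to 1.15% with a replicate left out. The 6 ribosomal protein genes became 1 at a minimum signal of 20 and 1 with a window of 250 bp, and 7 to 9 with a replicate left out. The other settings kept shares inside their main interval and counts within 1.5 times. Wider or narrower windows and higher minimums change these counts by construction, and the cause of the other shifts was not tested. Read depth, mapping of repeated copies and the control were not used here, and 2 replicates limit what recurrence shows.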
